A study of Mus musculus with 163 samples.

Results

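The genes described here encode the receptors through which neurons sense GABA, glycine, glutamate and acetylcholine. They were chosen by symbol alone, as every gene whose name begins with *Gabra*, *Gabrb*, *Gabrg*, *Gabrd*, *Gabre*, *Gabrq*, *Gabrp*, *Gabbr*, *Glra*, *Glrb* or *Chrn*, or with *Gria*, *Grik*, *Grid*, *Grin*, *Grm* or *Chrm* and a number. This rule found 46 of the 12187 genes in the table. They were measured by RNA-seq in single cells (MBH Pos), which were sorted by GFP fluorescence from the mediobasal hypothalamus of male *Pomc*-eGFP mice (C57/BL6 Tg(Pomc-EGFP)1Low) aged 7 to 9 weeks and fed *ad libitum*. All cells therefore share the transgene, in which *Pomc* regulatory sequences drive GFP, and no treatment was given. A cell enters the study because the transgene was on at sorting, whatever its *Pomc* level.

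Each value is a log2RPM, the log2 of RPM (the read count scaled to library size) with a small constant added, so that a gene without reads stands at -0.91 log2RPM in every cell. Expression in a cell means 5 RPM or more on the linear scale. The cells were split by the level of *Agrp*, the agouti-related peptide that opposes the melanocortin peptides made from *Pomc*. In 48 Agrp-high cells it stood at 10 log2RPM or more, and in the Agrp-low cells it stood below that. The Agrp-low cells comprise 34 Pomc-high cells, with *Pomc* at 12 log2RPM or more, and 81 lower-Pomc cells. The cells nearest to the limits had 10.12 and 9.99 log2RPM of *Agrp*, and 12.20 and 11.91 log2RPM of *Pomc*. Within 1 log2RPM of the limits lay 8 cells for *Agrp* and 13 for *Pomc*. The labels tie no cell to an animal, a plate or a batch, so all cells together count as 1 sample. Differences between groups are therefore differences of mean log2RPM without a test, each SD is a spread over cells, and a gene is called higher or lower where the means differ by at least 1. Intervals on shares of cells are exact Clopper-Pearson 95% intervals and cover counting error only. Where no cell expressed a gene, the share that 3 cells would make up is given as a limit beside them.

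Ionotropic receptors are channels built from several subunits around a pore. GABA-A and glycine receptors pass chloride and mostly inhibit, and the nicotinic receptors for acetylcholine and the AMPA, kainate and NMDA receptors for glutamate pass cations and excite. The subunits that a cell makes set the affinity, speed and drug response of these channels. Metabotropic receptors (GABA-B, mGlu and muscarinic) act through G proteins. In the arcuate nucleus, POMC neurons favour satiety and AgRP neurons drive feeding, and both receive GABA and glutamate input.

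The cells had 1.46 to 41.9 M reads over the 12187 genes. Median depth was 8.45 M in Agrp-high and 8.09 M in Agrp-low cells, and 8.13 M in Pomc-high and 7.88 M in lower-Pomc cells. Agrp-high cells expressed 7251 ± 511 genes and Agrp-low cells 6729 ± 898 (SD over cells). The median gene stood 0.19 log2RPM higher in Agrp-high than in Agrp-low cells, and the differences between these groups below are not corrected for it. Between Pomc-high and lower-Pomc cells the median gene differed by -0.03. The neuronal genes *Snap25*, *Stmn2* and *Map2* were expressed in 100% of cells. Other genes of the neuron list were less even: *Syt1* was 4.58 lower in Pomc-high than in lower-Pomc cells, *Rbfox3* was 1.61 lower in Agrp-high than in Agrp-low cells, and *Elavl4* was 1.06 higher there (0.75 without 7 cells that expressed 3 or more pituitary markers). No gene of the microglia or endothelial list was in the table. Of the 16 other markers of oligodendrocytes, their precursors, astrocytes, tanycytes, pituitary cells and other arcuate neurons, *Mag* (1.56) and *Th* (1.77) were higher and *Tbx19* (-1.11) and *Tac2* (-1.70) lower in Agrp-high than in Agrp-low cells, and *Tbx19* (1.21) was higher and *Olig1* (-1.02), *Fabp7* (-1.22) and *Tac2* (-1.13) lower in Pomc-high than in lower-Pomc cells. Of 5 oligodendrocyte markers, 3 or more were expressed in 21 of 48 Agrp-high cells, 8 of 34 Pomc-high cells and 17 of 81 lower-Pomc cells. Without the same 7 cells the differences of *Tbx19* were -0.63 and -0.21. Between Pomc-high and lower-Pomc cells *Olig1* then differed by -0.9996, just under the limit, and *Elavl4* by 1.18 (0.17 with the 7 cells). Leaving out every cell that held 3 or more other-type markers removed 21 Agrp-high, 12 Pomc-high and 19 lower-Pomc cells. Between Agrp-high and Agrp-low cells the differences of *Gabbr2* and *Grid1* then came under 1. Between Pomc-high and lower-Pomc cells those of *Gabbr2*, *Gabra2*, *Gabrg1*, *Grik3* and *Grm5* did. The other receptor genes called below stayed at 1 or more. Whether the markers themselves account for these losses was not tested.

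Some cells stood apart in both their pituitary genes and their receptor genes. The table holds 4 genes of a list of 7 pituitary markers (among them *Prl*, *Pou1f1* and *Tbx19*), and 7 cells expressed 3 or more of them, of which 5 were Pomc-high and 2 lower-Pomc. In these 5 Pomc-high cells *Tbx19*, a transcription factor of pituitary *Pomc* cells, stood at 8.15 to 10.80 log2RPM, against at most 2.70 log2RPM in the other 29 Pomc-high cells. The 5 cells expressed 4 to 10 of the 46 receptor genes with a median of 6, whereas the other 29 expressed 17 to 36 with a median of 28. These ranges do not overlap. The 5 cells also expressed fewer genes in all (4603 to 5736, against 5096 to 8233). The 24 cells of any group with under 6000 genes and under 3 pituitary markers expressed 10 to 28 of the 46, with a median of 22.5. Of the 46, 32 were expressed in none of these 5 cells. The same count over all genes is not given here, so it cannot be set beside this one. Among these 5 cells, *Gria2* and *Grin1* were each expressed in 4, and *Gabbr1* and *Grik2* each in 3. The labels call every cell a hypothalamic neuron that expresses *Pomc*, and the part of these pituitary genes in the results was not tested. These 5 cells are kept in the Pomc-high group below, with values without the 7 cells beside the differences whose call or direction they change.

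**Figure D1:**
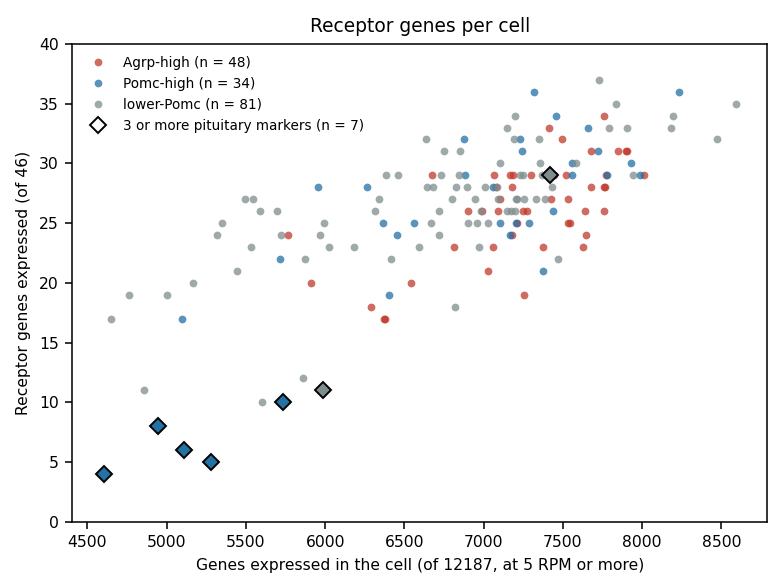
Number of receptor genes expressed in each cell (of 46, at 5 RPM or more) against the number of all genes expressed in that cell (of 12187). Each point is 1 cell, coloured by group, and the 7 cells with 3 or more pituitary markers are drawn as black-edged diamonds; the 5 Pomc-high cells among them hold 4 to 10 receptor genes and lie below all other Pomc-high cells.

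Cells with few receptor genes were found in lower-Pomc cells as well. In all, 9 cells expressed 12 or fewer of the 46, namely the 5 Pomc-high cells and 4 lower-Pomc cells. Each of the 9 had at least 1 of the 4 pituitary genes at 6.63 log2RPM or more. Among all the other cells, 10 had such a gene at 6.5 log2RPM or more, so a high pituitary gene was also seen in cells with 13 or more receptor genes. Over all cells the median was 27 receptor genes, and no Agrp-high cell had fewer than 17 or more than 34. The summed level of the pituitary list had a median of 3.53 RPM in Pomc-high cells (0.242 to 2402) and 4.29 RPM in lower-Pomc cells (0.153 to 17788), while Agrp-high cells reached at most 44.6 RPM.

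The 46 receptor genes were expressed about as widely as other genes in the table. Of them, 10 were expressed in at least 90% of all cells (21.7%, against 22.2% of all 12187 genes), 16 in 50% to 90%, 13 in 20% to 50% and 7 in under 20%. The median was 59.5% of cells for the receptor genes and 57.1% for all genes. The 10 widespread genes included the GABA-A subunits *Gabrb1* and *Gabrg1*, the GABA-B subunit *Gabbr1*, the glycine receptor subunit *Glrb*, the AMPA subunits *Gria1*, *Gria2* and *Gria4*, and the NMDA subunit *Grin1*. The 7 least widespread were the acetylcholine receptor genes *Chrna1*, *Chrna4*, *Chrna7*, *Chrm1* and *Chrm5*, with *Grin2a* and *Grm2*. Every gene in the table reaches 5 RPM in at least 7 cells, so receptor genes found in fewer cells were not analysed here.

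**Figure D2:**
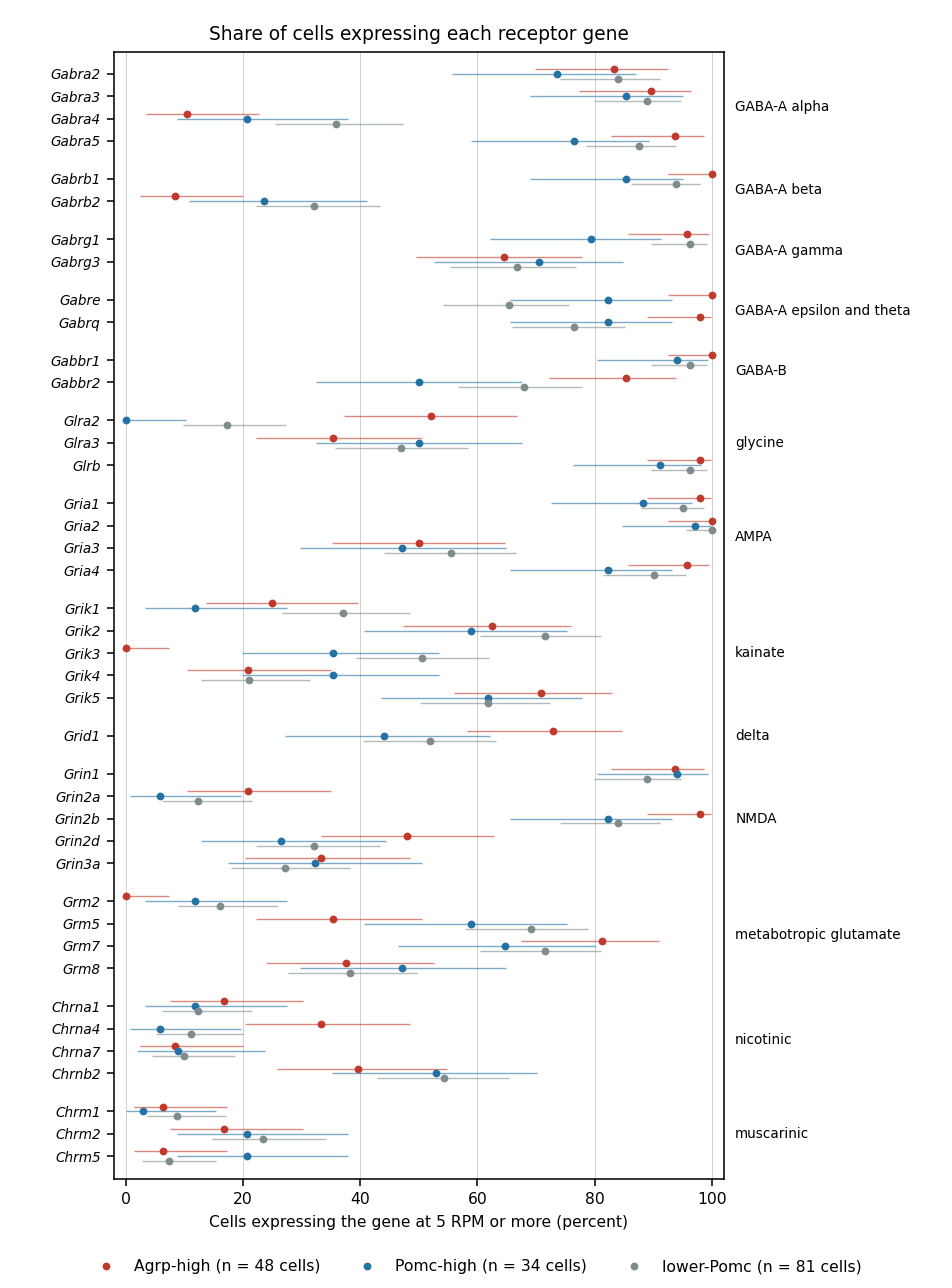
Share of cells expressing each of 41 receptor genes at 5 RPM or more, in percent, by subfamily. Points are the 48 Agrp-high, 34 Pomc-high and 81 lower-Pomc cells, and lines are 95% Clopper-Pearson intervals; *Grik3* and *Grm2* lie at 0 in Agrp-high cells and *Glra2* lies at 0 in Pomc-high cells.

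Between Agrp-high and Agrp-low cells, 7 of the 46 were higher and 7 were lower. That is 15.2% in each direction, against 8.65% of all 12187 genes that were higher and 2.94% that were lower. The genes higher in Agrp-high cells were *Glra2*, *Gabre*, *Gabrq*, *Chrna4*, *Gria4*, *Gabbr2* and *Grid1*, and those lower included *Grm5*, *Grik3*, *Gabra4*, *Glra3* and *Gabrb2*. The median difference was -0.15 over the 46 and 0.19 over all genes.

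Between Pomc-high and lower-Pomc cells, 2 of the 46 were higher (4.35%, against 4.5% of all genes) and 11 were lower (23.9%, against 5.1% of all genes). *Gabre* and *Gabrq* were higher in Pomc-high cells, and those lower included *Grik1*, *Gabra4*, *Gabbr2*, *Grm5*, *Gabra2*, *Grik2*, *Gria3*, *Glra2*, *Gabrg1* and *Grik3*. The median difference was -0.48 over the 46 and -0.03 over all genes. Without the 7 cells with 3 or more pituitary markers, the genes lower in Pomc-high cells numbered 4 (among them *Gabra4*, *Grik1* and *Grik2*), against 4.05% of all genes, and 3 were higher (among them *Gabre* and *Gabrq*), against 5.89%. The median over the 46 was then -0.12. In the Agrp-high against Agrp-low comparison, leaving out the same cells took only *Grid1* below the limit. In all, 27 of the 46 were called in neither comparison, against 9932 of all 12187 genes.

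**Figure D3:**
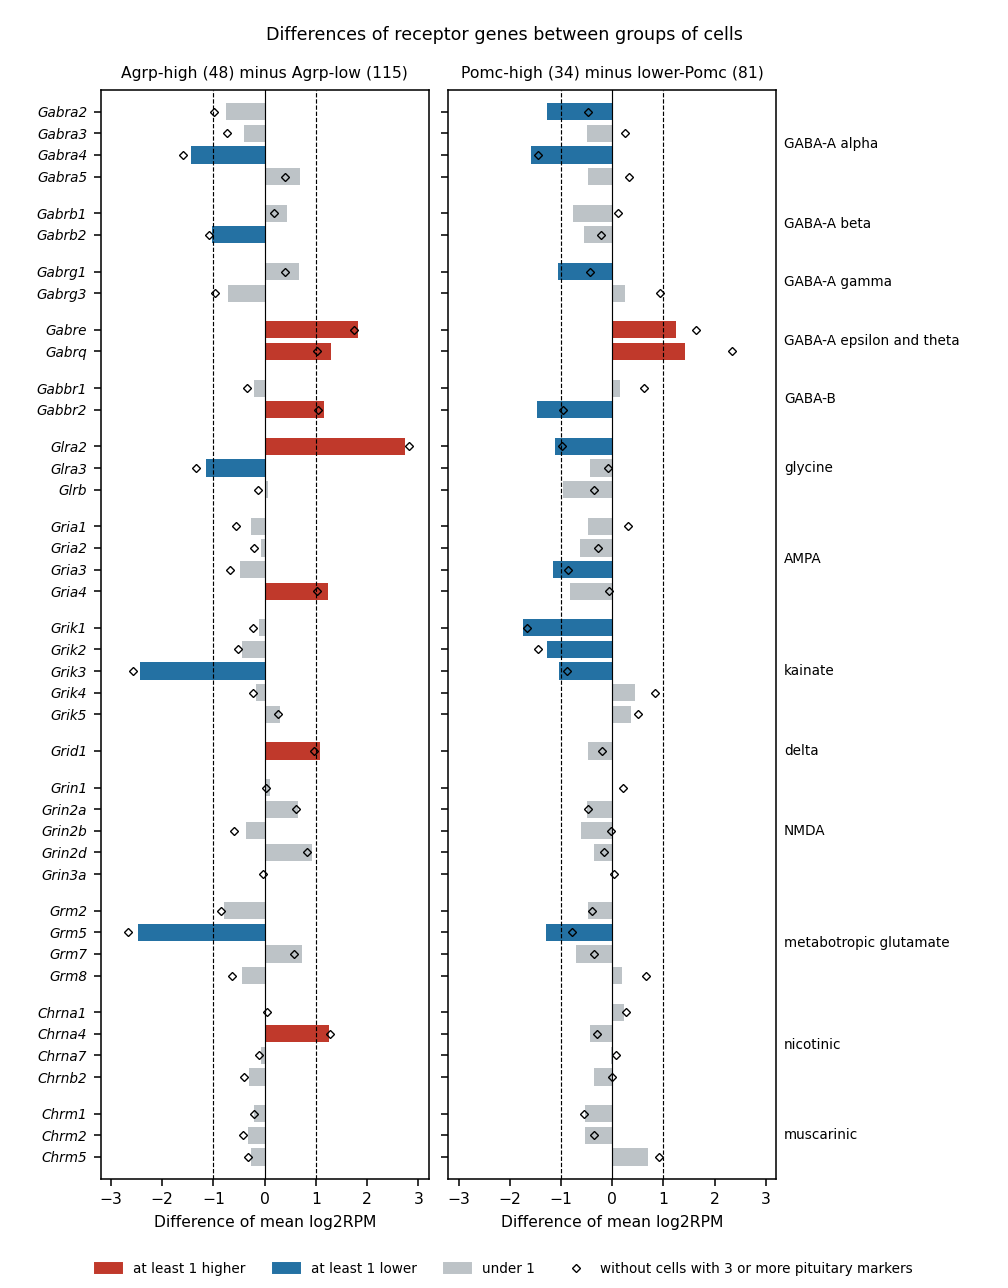
Difference of mean log2RPM for each of 41 receptor genes, Agrp-high minus Agrp-low cells on the left and Pomc-high minus lower-Pomc cells on the right. Bars are all cells, red where at least 1 higher and blue where at least 1 lower; open diamonds leave out the 7 cells with 3 or more pituitary markers, and dashed lines mark differences of 1 and -1.

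GABA-A receptors usually combine alpha and beta subunits, between which GABA binds, with another kind of subunit that is most often gamma. The table holds 13 of their genes: 5 alpha, 3 beta, 3 gamma, and the genes of the epsilon subunit (*Gabre*) and the theta subunit (*Gabrq*). All 13 lie in 4 clusters of the mouse genome (GRCm38, positions as in the table). *Gabrg1*, *Gabra2*, *Gabra4* and *Gabrb1* share 1387 kb of chromosome 5, and *Gabre*, *Gabra3* and *Gabrq* share 587 kb of the X chromosome. An alpha, a beta and a gamma gene were expressed together in 95.1% of all cells (interval 90.6% to 97.9%): in 48 of 48 Agrp-high cells, 29 of 34 Pomc-high cells and 78 of 81 lower-Pomc cells. Among Pomc-high cells without 3 or more pituitary markers it was 29 of 29.

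*Gabre* and *Gabrq* were the only receptor genes higher in both comparisons. The epsilon subunit is known to make GABA-A receptors less sensitive to benzodiazepines and some anaesthetics, and epsilon and theta are known from the hypothalamus and brainstem more than from the cortex. *Gabre* ran between 2.78 and 7.59 log2RPM in Agrp-high cells (median 5.41), against -0.91 to 7.38 log2RPM in Agrp-low cells (median 4.12). The high ends of the groups overlapped, but all 48 Agrp-high cells expressed it (100%, interval 92.6% to 100%), against 70.4% of Agrp-low cells (61.2% to 78.6%). The means were 5.40 ± 0.93 and 3.57 ± 2.23 log2RPM, a difference of 1.83.

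*Gabrq* ran between 2.09 and 8.95 log2RPM in Agrp-high cells (median 6.90), against -0.91 to 9.82 log2RPM in Agrp-low cells (median 6.57). The medians lay close together, the means differed by 1.30, and 47 of 48 Agrp-high cells (97.9%) expressed the gene, against 78.3% of Agrp-low cells. Both genes were expressed together in 47 of 48 Agrp-high cells (97.9%, interval 88.9% to 99.9%), against 60.9% of Agrp-low cells (51.3% to 69.8%).

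In Pomc-high cells *Gabre* ran between -0.30 and 6.95 log2RPM (median 5.24), against -0.91 to 7.38 log2RPM in lower-Pomc cells (median 3.39), a difference of 1.25. *Gabrq* ran between -0.91 and 8.93 log2RPM (median 7.59) in Pomc-high cells, against -0.91 to 9.82 log2RPM (median 5.39) in lower-Pomc cells, a difference of 1.42. Both pairs of groups overlapped over most of their range. None of the 5 Pomc-high cells with pituitary markers expressed *Gabrq*, and 28 of the other 29 did. Leaving out the 7 cells gave differences of 1.64 for *Gabre* and 2.34 for *Gabrq*. Leaving out cells with a glial or pituitary marker at 8 log2RPM instead took the difference of *Gabre* under 1. So did a constant of 5 RPM added to each value. In both cases *Gabrq* stayed at 1 or more.

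These 2 genes did not differ in the same way in every range of cell numbers, by which the labels name the cells. Among cells 67 to 98, with 5 Agrp-high and 27 Agrp-low cells, the difference was -0.11 for *Gabre* and -0.74 for *Gabrq*. Among cells 1 to 66, with 32 Agrp-high and 34 Agrp-low cells, it was 2.62 for *Gabre* and 1.63 for *Gabrq*. Cells from 99 on, with 11 Agrp-high and 54 Agrp-low cells, gave 1.67 for *Gabre* and 1.79 for *Gabrq*. Between Pomc-high and lower-Pomc cells of the last range the differences were 0.11 for *Gabre* and 0.43 for *Gabrq*.

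The starts of *Gabre* and *Gabrq* lie 550 kb apart on the X chromosome, and *Gabra3*, which was called in neither comparison, starts between them. The sequences before the 3 starts are shown because of this contrast between neighbours. They were taken from RefSeq (GRCm38.p6) and run up to the start, or for *Gabre* up to the start of the longer GENCODE transcript, and of 2 starts listed for *Gabra3* the farther upstream is shown. Capitals mark matches on either strand to the GC box GGGCGG, to the box named CCAAT after its letters, to the TATA box TATAAA, to the E-box CANNTG or to the cyclic AMP response element TGACGTCA, and no match overlapped another.
*Gabre*, chrX:72274804-72274971, minus strand: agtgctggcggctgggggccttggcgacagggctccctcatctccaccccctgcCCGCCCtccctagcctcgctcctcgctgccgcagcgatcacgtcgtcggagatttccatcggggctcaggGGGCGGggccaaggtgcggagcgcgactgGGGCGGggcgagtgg
*Gabra3*, chrX:72656920-72657169, minus strand: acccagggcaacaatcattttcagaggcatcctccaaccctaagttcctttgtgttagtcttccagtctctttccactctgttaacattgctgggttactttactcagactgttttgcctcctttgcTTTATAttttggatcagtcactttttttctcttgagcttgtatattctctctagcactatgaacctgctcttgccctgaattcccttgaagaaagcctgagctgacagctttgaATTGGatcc
*Gabrq*, chrX:72824928-72825177, plus strand: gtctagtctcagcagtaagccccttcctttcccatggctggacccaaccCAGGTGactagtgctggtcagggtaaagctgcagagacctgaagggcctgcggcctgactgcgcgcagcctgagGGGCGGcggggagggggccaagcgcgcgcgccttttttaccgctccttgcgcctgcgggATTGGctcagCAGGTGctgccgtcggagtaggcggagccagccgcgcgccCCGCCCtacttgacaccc

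The sequences before *Gabre* and *Gabrq* were rich in G and C and held GC boxes. That before the start shown for *Gabra3* was not and held none. Over the 250 bases before each start, G and C made up 68.8% for *Gabre*, 67.2% for *Gabrq* and 42.4% for *Gabra3*, against a median of 52.4% over 32851 such windows in the RefSeq table. That table has an entry for 32 of the 46 receptor genes, matched by symbol. Of these 32, 20 held the GC box before a listed start, so it was not particular to *Gabre* and *Gabrq*. In the same 250 bases, of which 168 are shown above for *Gabre*, the pair of letters CG occurred 21 times before *Gabre*. It occurred 19 times before *Gabrq* and 0 times before *Gabra3*. Among all these windows, 32.7% held the GC box, 33.8% the CCAAT box, 12.4% the TATA box, 66.2% the E-box and 1.55% the cyclic AMP response element, so matches to most of these motifs are common. A match is a run of letters and was not tested as a binding site.

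Alpha subunits set much of the pharmacology of GABA-A receptors, and *Gabra3* was the most widespread of the 5, in 88.3% of all cells (interval 82.4% to 92.8%). Its cells were 43 of 48 Agrp-high, 29 of 34 Pomc-high and 72 of 81 lower-Pomc cells, and its differences were -0.41 between Agrp-high and Agrp-low cells and -0.50 between Pomc-high and lower-Pomc cells, the second of which was 0.26, in the other direction, without the 7 cells. *Gabra5*, in 87.1% of cells, differed by 0.69 and -0.48, and the second was 0.33 without the 7 cells. *Gabra2*, in 81.6% of cells, differed by -0.76 between Agrp-high and Agrp-low cells.

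*Gabra4*, an alpha subunit known from receptors outside synapses, was lower in both comparisons. Its median was -0.44 log2RPM in Agrp-high cells (-0.91 to 5.35), against 0.02 log2RPM in Agrp-low cells (-0.91 to 8.11), and 5 of 48 Agrp-high cells (10.4%) expressed it, against 31.3% of Agrp-low cells. The difference of means was -1.44. It was expressed in 7 of 34 Pomc-high cells (-0.91 to 7.37 log2RPM, median -0.63), against 29 of 81 lower-Pomc cells (-0.91 to 8.11 log2RPM, median 0.37), with a difference of -1.58 and of -1.45 without the 7 cells. Most cells of every group lay at the low end, where the groups overlapped.

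*Gabra2* was called only between Pomc-high and lower-Pomc cells. It ran between -0.91 and 7.87 log2RPM in Pomc-high cells (median 5.44), against -0.91 to 8.84 log2RPM in lower-Pomc cells (median 6.76), with a difference of -1.27. Of the 9 Pomc-high cells that did not express it, 5 were those with pituitary markers. Without the 7 cells the difference was -0.46, and the groups overlapped over nearly their whole range.

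Levels of different genes can be set side by side per length of exon. On the scale of RPM per kb of exon, *Gabra5* had the highest value of the 5 alpha genes in 71 cells, *Gabra3* in 68, *Gabra2* in 9 and *Gabra4* in 0. In Agrp-high cells *Gabra5* was highest in 27 of 48. In lower-Pomc cells *Gabra3* was highest in 35 of 81. Exon lengths are those of all annotated exons of a gene together, which is longer than any single transcript.

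Of the beta subunits, *Gabrb1* was found in 93.9% of all cells and was called in neither comparison, with differences of 0.44 between Agrp-high and Agrp-low cells and -0.76 between Pomc-high and lower-Pomc cells. The second was 0.12 without the 7 cells. *Gabrb2* was sparser. It had a median of -0.41 log2RPM in Agrp-high cells (-0.91 to 5.83), against -0.46 log2RPM in Agrp-low cells (-0.91 to 9.66). Both medians are near the lowest value, the means differed by -1.04, and 4 of 48 Agrp-high cells (8.33%) expressed the gene, against 29.6% of Agrp-low cells. That difference is just past the limit, and 9 of 14 alternatives kept it there. The 14 include leaving out genes found in under 10% of cells, which cannot change the difference of a gene that stays in.

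The gamma subunits anchor GABA-A receptors at synapses and are needed for benzodiazepine binding. *Gabrg3* was expressed in 66.9% of cells, and its 2 differences were -0.72 and 0.26, or -0.98 and 0.93 without the 7 cells.

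*Gabrg1* was expressed in 92.6% of cells and was lower in Pomc-high cells. It ran between -0.61 and 8.85 log2RPM there (median 7.04), against -0.91 to 10.50 log2RPM in lower-Pomc cells (median 7.63), a difference of -1.06. The 27 of 34 Pomc-high cells that expressed it lay within the range of the 78 of 81 lower-Pomc cells that did. It was -0.43 without the 7 cells, and among cells 1 to 66 it was 0.50, in the other direction. Between Agrp-high and Agrp-low cells *Gabrg1* differed by 0.68. Among the gamma, epsilon and theta genes, per kb, *Gabrq* made up 30.1% of the summed mean level in Agrp-high cells, 30.5% in Pomc-high cells and 15.9% in lower-Pomc cells.

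GABA-B receptors act through G proteins and need both subunits, since *Gabbr1* binds GABA and *Gabbr2* carries the receptor to the surface. *Gabbr1* was expressed in 96.9% of all cells (interval 93% to 99%) and differed by -0.21 and 0.15 in the 2 comparisons, or by -0.35 and 0.62 without the 7 cells. *Gabbr2* was the less frequent partner, in 69.3% of cells, and no cell expressed it without *Gabbr1*. The pair was thus found in 41 of 48 Agrp-high cells (85.4%, interval 72.2% to 93.9%), 17 of 34 Pomc-high cells (50%, 32.4% to 67.6%) and 55 of 81 lower-Pomc cells (67.9%, 56.6% to 77.8%). Of the 29 Pomc-high cells without 3 or more pituitary markers, 17 held the pair (58.6%).

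*Gabbr2* ran between -0.91 and 7.50 log2RPM in Agrp-high cells (median 5.41), against -0.91 to 8.68 log2RPM in Agrp-low cells (median 4.29), a difference of 1.15. In Pomc-high cells it ran between -0.91 and 8.30 log2RPM (median 1.81), against -0.91 to 8.68 log2RPM in lower-Pomc cells (median 5.08), a difference of -1.47. All these ranges overlapped nearly in full. The first difference was 0.25 among cells 1 to 66, which hold 32 of the 48 Agrp-high cells, 0.43 among cells 67 to 98 and 1.94 among cells from 99 on. The second difference was -0.97 without the 7 cells and 0.01 among cells from 99 on. Both differences came under 1 when cells that held 3 or more other-type markers were left out.

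**Figure D4:**
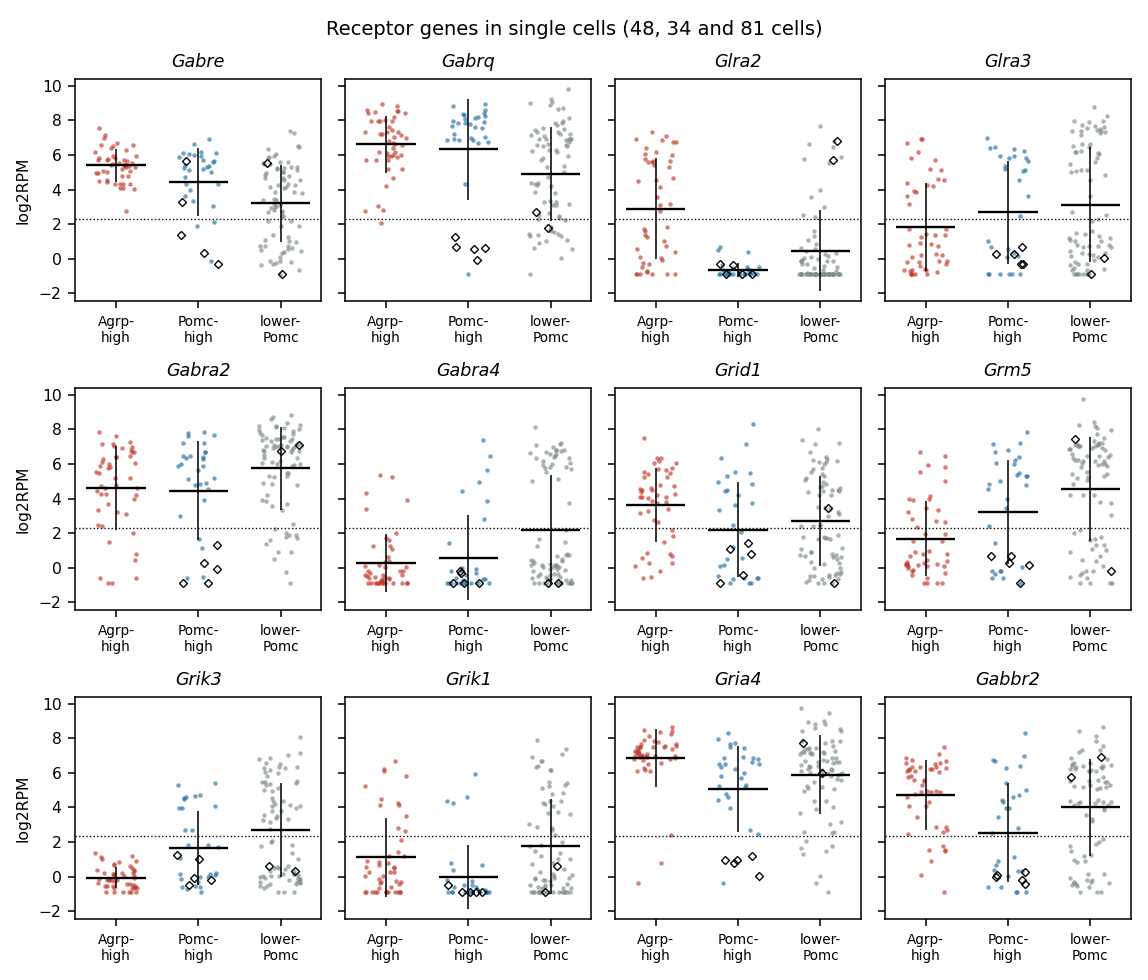
Levels of 12 receptor genes in single cells, in log2RPM, for 48 Agrp-high, 34 Pomc-high and 81 lower-Pomc cells. Each point is 1 cell, open diamonds are the 7 cells with 3 or more pituitary markers, horizontal bars are means, vertical bars are SDs over cells and the dotted line is 5 RPM; *Grik3* stays under that line in every Agrp-high cell and *Glra2* in every Pomc-high cell.

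Glycine receptors are chloride channels built from alpha subunits and the beta subunit *Glrb*, which ties them to the scaffold gephyrin. *Glrb* was expressed in 95.7% of all cells (interval 91.4% to 98.3%), with differences of 0.07 and -0.95, which were -0.13 and -0.35 without the 7 cells. The alpha genes *Glra2* and *Glra3* divided the groups in opposite directions. *Glra2* ran between -0.91 and 7.36 log2RPM in Agrp-high cells (median 2.92), against -0.91 to 7.69 log2RPM in Agrp-low cells (median -0.91), so that most Agrp-low cells had no read of it.

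*Glra2* was expressed in 25 of 48 Agrp-high cells (52.1%, interval 37.2% to 66.7%), against 12.2% of Agrp-low cells (6.82% to 19.6%). The means were 2.88 ± 2.93 and 0.14 ± 2.05 log2RPM, a difference of 2.75 that stayed at 1.39 or more under all 14 alternatives. No Pomc-high cell expressed it (0 of 34), which allows a share of up to 8.82% by a limit of 3 cells and 10.3% by the exact interval, with a highest value of 0.70 log2RPM, against 14 of 81 lower-Pomc cells, where it reached 7.69 log2RPM. That difference was -1.12, and -0.97 without the 7 cells. Among cells 67 to 98 it was -0.08.

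*Glra3* was lower in Agrp-high cells. It ran between -0.91 and 6.92 log2RPM there (median 0.87), against -0.91 to 8.80 log2RPM in Agrp-low cells (median 1.63), a difference of -1.15. Of 48 Agrp-high cells 17 expressed it (35.4%), against 47.8% of Agrp-low cells (17 of 34 Pomc-high and 38 of 81 lower-Pomc cells), and levels overlapped throughout. *Glra2* without *Glra3* was the state of 35.4% of Agrp-high cells and 6.09% of Agrp-low cells, and *Glra3* without *Glra2* that of 18.8% of Agrp-high cells and 41.7% of Agrp-low cells.

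*Gabra2* and *Gabrg1*, which lie in the same cluster on chromosome 5, went together among Pomc-high cells, with a rank correlation of 0.76 over 34 cells. That is the highest of 561 pairs of receptor genes in this group, of which 35 had 0.5 or more and whose median was 0.21. The same pair had 0.30 over the Agrp-high and 0.35 over the lower-Pomc cells. In Pomc-high cells it was 0.66 over the 29 Pomc-high cells without 3 or more pituitary markers, where 25 cells expressed both genes, 2 expressed *Gabrg1* alone and 2 neither. Over all 34 Pomc-high cells, *Gabrb1* of the same cluster had 0.41 with *Gabrg1* and 0.40 with *Gabra2*. *Gabrq* and *Gria4*, which lie on different chromosomes, had 0.65 there. Whether the shared cluster plays a part was not tested. *Gabre* and *Gabrq* had 0.14 over the Agrp-high cells and 0.47 over the Agrp-low cells. All of these are descriptions over cells of 1 sample, which share library preparation.

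AMPA receptors carry fast excitation, and *Gria2*, whose subunit keeps them closed to calcium, was expressed in all but 1 cell (99.4%, interval 96.6% to 100%). It had a mean of 8.61 ± 0.77 log2RPM in Agrp-high cells, against 8.69 ± 1.33 log2RPM in Agrp-low cells. The Pomc-high mean was 8.24 ± 1.69 log2RPM, against 8.87 ± 1.10 log2RPM in lower-Pomc cells. *Gria1*, in 94.5% of cells, differed by -0.26 and -0.48, so neither gene was called. Without the 7 cells the second difference of *Gria1* was 0.32, in the other direction.

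*Gria4* was higher in Agrp-high cells. It ran between -0.38 and 8.65 log2RPM there (median 7.14), against -0.91 to 9.74 log2RPM in Agrp-low cells (median 6.22), a difference of 1.23 with ranges that overlapped in full. Among cells 67 to 98, with 5 Agrp-high cells, the difference was -0.72. Per kb, *Gria4* made up 33.8% of the AMPA family's mean level in Agrp-high cells, 17.9% in Pomc-high cells and 21.3% in lower-Pomc cells.

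*Gria3*, on the X chromosome, was lower in Pomc-high cells, where it ran between -0.91 and 7.29 log2RPM (median 1.27), against -0.91 to 9.50 log2RPM in lower-Pomc cells (median 4.11). The 16 of 34 Pomc-high and 45 of 81 lower-Pomc cells that expressed it overlapped in level. The means differed by -1.15, and by -0.87 without the 7 cells. Between Agrp-high and Agrp-low cells it was -0.49.

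Kainate receptors combine the low-affinity subunits *Grik1*, *Grik2* and *Grik3*, which can form channels alone, with the high-affinity *Grik4* and *Grik5*, which cannot. *Grik2* was the most widespread, in 66.3% of all cells (interval 58.4% to 73.5%), and *Grik5* followed with 64.4%. A *Grik4* or *Grik5* gene was expressed together with *Grik1*, *Grik2* or *Grik3* in 28 of 48 Agrp-high cells, 21 of 34 Pomc-high cells and 48 of 81 lower-Pomc cells. *Grik4* (39 cells) and *Grik5* were called in neither comparison, with differences between -0.18 and 0.45 (between -0.24 and 0.84 without the 7 cells).

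*Grik3* separated Agrp-high cells from the rest. None of 48 Agrp-high cells expressed it, which allows a share of up to 6.25% by the limit of 3 cells and 7.40% by the exact interval, against 46.1% of Agrp-low cells (interval 36.8% to 55.6%). Its values ran between -0.91 and 1.37 log2RPM in Agrp-high cells (median -0.18), against -0.91 to 8.07 log2RPM in Agrp-low cells (median 1.81), so the groups overlapped only at the low end. The difference of -2.44 stayed at -1.29 or lower under all 14 alternatives.

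In Pomc-high cells *Grik3* ran between -0.91 and 5.42 log2RPM (median 1.06), against -0.91 to 8.07 log2RPM in lower-Pomc cells (median 2.74), with 12 of 34 Pomc-high and 41 of 81 lower-Pomc cells expressing it. That difference, -1.05, was -0.87 without the 7 cells and 0.02 among cells 1 to 66, and the groups overlapped up to the highest Pomc-high cell.

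*Grik1* and *Grik2* were lower in Pomc-high cells. *Grik1* ran between -0.91 and 5.93 log2RPM there (median -0.91), against -0.91 to 7.91 log2RPM in lower-Pomc cells (median 0.62), and 4 of 34 Pomc-high cells expressed it (11.8%, interval 3.30% to 27.5%), against 30 of 81 lower-Pomc cells (37%, 26.6% to 48.5%). The difference was -1.75. *Grik2* ran between -0.91 and 7.84 log2RPM in Pomc-high cells (median 3.75), against -0.91 to 8.95 log2RPM in lower-Pomc cells (median 5.26), a difference of -1.27. For both genes the cells that expressed them overlapped in level between the groups. Both stayed past the limit without the 7 cells, at -1.66 for *Grik1* and -1.45 for *Grik2*. Among cells from 99 on, which hold 17 of the 34 Pomc-high cells, the calls were lost, at -0.73 for *Grik1* and -0.53 for *Grik2*, and among cells 1 to 66 *Grik2* differed by -0.70.

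Delta receptors join synapses through cerebellins rather than pass current in response to glutamate. *Grid1*, which encodes one, ran between -0.62 and 7.50 log2RPM in Agrp-high cells (median 4.09), against -0.91 to 8.32 log2RPM in Agrp-low cells (median 2.04), a difference of 1.08 between groups that overlapped in full. Of 48 Agrp-high cells 35 expressed it (72.9%), against 49.6% of Agrp-low cells. Without the 7 cells the difference was 0.96, and 8 of 14 alternatives kept it at 1 or more.

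NMDA receptors need *Grin1* together with a *Grin2* or *Grin3* subunit and act as detectors of coincident activity. *Grin1* was expressed in 91.4% of all cells (interval 86% to 95.2%), *Grin2b* in 87.7%, *Grin2d* in 35.6%, *Grin3a* in 30.1% and *Grin2a*, the subunit best known from the mature forebrain, in 13.5%. None of the 5 was called in either comparison. The largest differences were those of *Grin2d*, 0.93 between Agrp-high and Agrp-low cells, and of *Grin2a*, 0.65. *Grin1* with a *Grin2* gene was found in 44 of 48 Agrp-high cells, 27 of 34 Pomc-high cells and 63 of 81 lower-Pomc cells, and in 27 of the 29 Pomc-high cells without 3 or more pituitary markers. Exons of *Grin1* share 13.5% of their bases with the opposite strand transcript *Grin1os*, and the libraries do not keep strand, so reads of these stretches cannot be told apart.

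**Figure D5:**
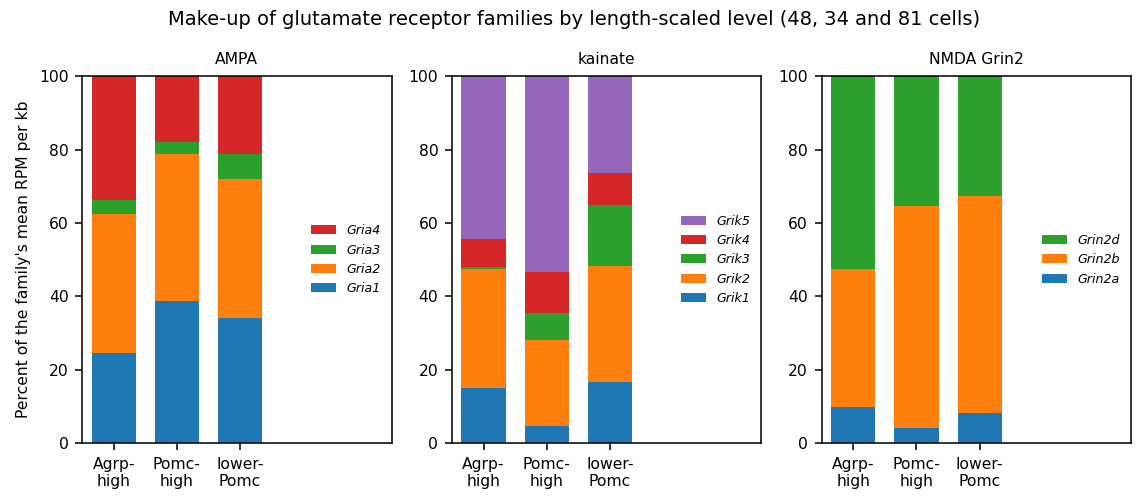
Make-up of the AMPA, kainate and *Grin2* families in Agrp-high (48), Pomc-high (34) and lower-Pomc (81) cells. Each bar splits the summed mean RPM per kb of exon of a family among its genes, in percent; *Gria4* takes 33.8% of the AMPA bar in Agrp-high cells, 17.9% in Pomc-high cells and 21.3% in lower-Pomc cells, and *Grik3* takes 0.623% of the kainate bar in Agrp-high cells, 7.54% in Pomc-high cells and 16.7% in lower-Pomc cells.

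Among metabotropic glutamate receptors, *Grm5* couples to Gq and releases calcium from stores, whereas *Grm2*, *Grm7* and *Grm8* couple to Gi and mostly curb transmitter release. *Grm5* ran between -0.91 and 6.72 log2RPM in Agrp-high cells (median 0.77), against -0.91 to 9.78 log2RPM in Agrp-low cells (median 5.29). It was expressed in 17 of 48 Agrp-high cells (35.4%, interval 22.2% to 50.5%), against 66.1% of Agrp-low cells (56.7% to 74.7%), with a difference of -2.47 and an overlap up to the highest Agrp-high cell. It stayed past the limit under all 14 alternatives, with values between -3.02 and -1.73.

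*Grm5* was also lower in Pomc-high cells, where it ran between -0.91 and 7.83 log2RPM (median 4.27), against -0.91 to 9.78 log2RPM in lower-Pomc cells (median 5.91). The difference was -1.30, with ranges that overlapped, and it was -0.79 without the 7 cells.

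*Grm7* was the most widespread metabotropic glutamate receptor, in 73% of all cells (interval 65.5% to 79.7%), and was called in neither comparison (0.73 and -0.72, or 0.58 and -0.35 without the 7 cells). The cells with *Grm7* were 39 of 48 Agrp-high, 22 of 34 Pomc-high and 58 of 81 lower-Pomc cells. Per kb it made up 81.5% of the family's mean level in Agrp-high cells, 35.2% in Pomc-high cells and 38.7% in lower-Pomc cells, and was the highest of the 5 genes in 39 of 48 Agrp-high cells. Its difference between Agrp-high and Agrp-low cells was not even over the cell numbers. It was 0.33 among cells 1 to 66, -3.57 among cells 67 to 98, with 5 Agrp-high cells, and 2.04 among cells from 99 on. *Grm8*, in 65 cells, differed by -0.45 and 0.19, or by -0.64 and 0.66 without the 7 cells. *Grm2*, in 17 cells, was expressed in 0 of 48 Agrp-high cells, which allows the same limits as for *Grik3*, and in 14.8% of Agrp-low cells, with a difference of -0.79.

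Acetylcholine receptor genes were the sparsest. A nicotinic gene was expressed in 66.3% of all cells and a muscarinic gene in 34.4%. *Chrnb2*, the beta subunit of the main nicotinic receptor of the brain, was expressed in 81 cells (49.7%, interval 41.8% to 57.6%) and differed by -0.30 and -0.36, the second of which was 0.00013 without the 7 cells. It shares 1365 exon bases (16.3% of its exons) with *Adar* on the opposite strand, and reads of that stretch cannot be told apart.

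*Chrna4*, the usual alpha partner of *Chrnb2*, was higher in Agrp-high cells. It ran between -0.91 and 6.52 log2RPM there (median -0.21), against -0.91 to 8.02 log2RPM in Agrp-low cells (median -0.91), a difference of 1.26. It was 0.72 among cells 1 to 66, 0.51 among cells 67 to 98 and 2.97 among cells from 99 on, with 11 Agrp-high cells, so the call held in 1 of 3 ranges. The cells that expressed it were 16 of 48 Agrp-high cells (33.3%, interval 20.4% to 48.4%), against 9.57% of Agrp-low cells (4.87% to 16.5%), and most cells of both groups lay near the lowest value. *Chrna4* and *Chrnb2* were expressed together in 18.8% of Agrp-high cells, against 6.09% of Agrp-low cells. *Chrna7*, whose subunit forms receptors by itself, was expressed in 15 cells, and *Chrna1*, known from muscle, in 22, and neither was called in a comparison.

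Of the muscarinic genes, *Chrm2*, which couples to Gi, was expressed in 34 cells (20.9%, interval 14.9% to 27.9%), *Chrm5* in 16 and *Chrm1* in 11, and none was called. *Chrm5* differed by 0.69 between Pomc-high and lower-Pomc cells, with 7 of 34 Pomc-high cells expressing it (20.6%, 8.70% to 37.9%), against 6 of 81 lower-Pomc cells (7.41%, 2.77% to 15.4%). *Chrm2* was expressed in 8 of 48 Agrp-high, 7 of 34 Pomc-high and 19 of 81 lower-Pomc cells.

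Receptors work with auxiliary subunits, chaperones and scaffolds, and of 99 such genes listed for the same families, 83 were in the table. Between Agrp-high and Agrp-low cells 14 of the 83 were higher (16.9%, against 8.65% of all genes) and 6 were lower (7.23%, against 2.94%). Between Pomc-high and lower-Pomc cells 5 were higher (6.02%, against 4.5%) and 12 were lower (14.5%, against 5.1%). Without the 7 cells with pituitary markers, 12 were higher and 6 lower in the first comparison (8.05% and 3.07% of all genes). In the second, 6 were higher and 9 lower (5.89% and 4.05% of all genes).

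Among AMPA receptor partners, 7 of 31 were higher in Agrp-high cells and 3 were lower. The largest difference was that of *Cacng5*, an auxiliary subunit of the TARP family, expressed in 75% of Agrp-high cells, against 24.3% of Agrp-low cells, with means of 4.57 and 1.09 log2RPM and a difference of 3.47. *Grip1*, which anchors AMPA receptors through a PDZ domain, was higher by 1.69, *Olfm1* by 1.65, *Shisa6*, which limits desensitization, by 1.52, *Cpt1c* by 1.18, *Sacm1l* by 1.03 and *Lrrtm4* by 1.01, and without the 7 cells *Sacm1l* (0.92) and *Lrrtm4* (0.81) were no longer called. *Olfm3* (-2.59), the pentraxin *Nptx1* (-1.21) and *Prrt2* (-1.03) were lower. In Pomc-high cells *Lrrtm3*, a synaptic adhesion protein, was lower by 2.34 and was expressed in 18 of 34 cells, against 68 of 81 lower-Pomc cells. *Prrt2* (-1.60), *Cnih3* (-1.22), *Nrn1* (-1.17) and *Frrs1l* (-1.13, but -0.30 without the 7 cells) were lower there too, and *Abhd6* was higher (1.08). *Nptx2* was called higher in Pomc-high cells only without the 7 cells (1.26, against 0.76 with them).

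The partners of kainate, delta and GABA-B receptors were few. *Neto2*, an auxiliary subunit of kainate receptors, was expressed in 83.3% of Agrp-high cells, against 44.3% of Agrp-low cells, and was higher by 2.45 there, while in Pomc-high cells it was lower than in lower-Pomc cells by 1.11. *Cbln4*, a secreted cerebellin, was expressed in 62.5% of Agrp-high cells, against 21.7% of Agrp-low cells, with a difference of 3.07. *Kctd16*, an auxiliary subunit of GABA-B receptors, differed by 2.01 between Agrp-high and Agrp-low cells (66.7% and 27% of cells). Between Pomc-high and lower-Pomc cells it differed by -1.54 (4 of 34 and 27 of 81 cells). These are the directions of *Gabbr2*, whereas *Gabbr1* (-0.21 and 0.15) went the other way in both comparisons. *Kctd8*, the other GABA-B partner measured, differed by -0.63 and -0.48 and was called in neither.

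Among partners of GABA-A and glycine receptors, *Nlgn3* (1.53) and *Iqsec3* (1.33) were higher in Agrp-high cells and *Slitrk3* (-1.32) was lower. In Pomc-high cells *Nlgn3* (-1.36), *Dmd* (-1.28), *Slitrk3* (-1.04) and *Shisa7* (-1.02) were lower. *Slitrk3* (-0.83) and *Shisa7* (-0.92) came under the limit there without the 7 cells. Of 16 glutamate receptor scaffolds, *Dlg3* (-1.04) was the only one called between Agrp-high and Agrp-low cells. *Dlg4* (1.31), which encodes PSD-95, *Homer1* (1.25), which links *Grm5* receptors to calcium stores, and *Dlgap3* (1.15) were higher in Pomc-high cells, and *Shank2* (-1.24) was lower. Neither *Homer1* (0.24) nor *Shank2* (-0.92) was called without the 7 cells. *Camk2a* (1.01, against 0.85 with them) was then called higher and *Homer2* (-1.06, against -0.33) lower in Pomc-high cells.

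Of 8 nicotinic receptor chaperones and modulators, *Tmem35*, known as the chaperone NACHO, had the largest difference of all 83 genes between Agrp-high and Agrp-low cells. In Agrp-high cells 60.4% expressed it with a mean of 3.30 log2RPM, against 90.4% of Agrp-low cells with a mean of 7.21 log2RPM, a difference of -3.92. In Pomc-high cells it was higher than in lower-Pomc cells by 1.43, or by 2.29 without the 7 cells. *Lypd6* (2.31) and *Lypd6b* (1.49), which modulate nicotinic receptors at the cell surface, were higher in Agrp-high cells. *Lypd6* was expressed in 41.7% of Agrp-high cells, against 11.3% of Agrp-low cells.

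Cells of the groups are spread unevenly over the cell numbers, with 32, 5 and 11 Agrp-high cells and 34, 27 and 54 Agrp-low cells among cells 1 to 66, cells 67 to 98 and the cells from 99 on. Of the 14 receptor genes called between Agrp-high and Agrp-low cells, 11 had the same sign in all 3 ranges and 6 stayed at 1 or more in all of them. Of the 13 called between Pomc-high and lower-Pomc cells, 10 had the same sign in all 3 ranges and 1 stayed at 1 or more. The same counts over all called genes are not given here, so receptor genes cannot be compared with others in this.

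The shares of all 12187 genes past the limit also differed between the ranges. Between Agrp-high and Agrp-low cells 8.6% were higher and 5.97% lower among cells 1 to 66, 21.3% and 19.5% among cells 67 to 98, and 16.6% and 6.96% among cells from 99 on. Among receptor genes called in that comparison, *Glra3* (-0.61), *Grid1* (0.31) and *Gria4* (0.95) were under the limit among cells 1 to 66, *Gabrb2* (-0.89) among cells 67 to 98 and *Grid1* (0.54) among cells from 99 on, beside the genes given above.

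Between Pomc-high and lower-Pomc cells 16.3% of all genes were higher and 10.9% lower among cells 1 to 66, 14.1% and 17.1% among cells 67 to 98, and 8.89% and 10.8% among cells from 99 on. Among receptor genes called there, *Gabra2* (-0.16) was under the limit among cells 1 to 66, *Grm5* (-0.07), *Grik3* (-0.97) and *Gabrq* (0.86) among cells 67 to 98, and *Gria3* (-0.68) among cells from 99 on, beside those given above.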

How the data were processed

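Per the labels and the study's methods, base calls came from CASAVA 1.7, alignment to GRCm38 from TopHat2 2.0.11 and gene counts from Cufflinks 2.2.1. Scaling was done in edgeR and limma, for which no version is given in the sources used here. Libraries were made with SMART-Seq v4 and Nextera XT and do not keep strand. The log2 values deposited by the authors are log2RPM with a floor of 0.532 RPM, and were used as given. All 163 columns matched a sample label, and no pair of cells had identical values. Depth came from the steps between low values, which fell within 0.1 of whole reads for 99.3% of values up to 20 reads.

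The receptor genes, the splits, the marker lists and the list of associated genes were chosen with earlier results of these data known. Values are given for receptor genes whose means differ by 1 or more in either comparison and for the most widespread gene of each subfamily, and associated genes are named where means differ by 1 or more. Some genes are not reported here, though counts over the receptor genes include them, and the plots by gene show 41. *Tmem35* was matched to NACHO through its RefSeq synonym. Exon lengths, strands and overlaps are from GENCODE M21, which matched all 46 genes. Alternatives were pseudocounts of 0.1, 1 and 5 RPM, an expression limit of 1 or 10 RPM, leaving out genes found in under 10% of cells, rescaling by 2711 genes expressed in at least 90% of cells, splits at *Agrp* 9 and 11 and at *Pomc* 11 and 13, thinning to 3.85 M reads, ranges of cell number, and leaving out cells with 3 or more markers of another type or lower-Pomc cells with *Pomc* under 6. Leaving out cells with a glial or pituitary marker at 8 log2RPM, or with 3 or more pituitary markers, was chosen after seeing the data. The scripts were tested on simulated data. The tools were matplotlib 3.10.9, scipy 1.17.1, pandas 2.3.3 and numpy 2.4.6 under Python 3.11.15.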

Additional observations from a re-analysis of the deposited data

How the results depend on the processing

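Of 196 values for the 14 receptor genes called between Agrp-high and Agrp-low cells, 193 kept their direction and 26 came under 1; of 195 for the 13 called between Pomc-high and lower-Pomc cells, it was 192 and 46. The others changed sign: *Gabre* (-0.11), *Gabrq* (-0.74) and *Gria4* (-0.72) between Agrp-high and Agrp-low cells among cells 67 to 98, and, between Pomc-high and lower-Pomc cells, *Gabrg1* (0.50) and *Grik3* (0.016) among cells 1 to 66 and *Gabbr2* (0.0088) among cells from 99 on. The cause was not tested. Between Agrp-high and Agrp-low cells, receptor genes higher and lower numbered 3 and 4 with a pseudocount of 5 RPM (2.54% and 1.15% of all genes), 4 and 12 among cells 1 to 66 (8.6% and 5.97% of all genes) and 4 and 19 among cells 67 to 98 (21.3% and 19.5% of all genes), and associated genes 6 and 2, 8 and 11, and, for lower ones in the last range, 15. Between Pomc-high and lower-Pomc cells, receptor genes higher and lower numbered 1 and 1 with a pseudocount of 5 RPM (1.33% and 0.919% of all genes). Without cells that held 3 or more other-type markers they numbered 5 and 6 (7.09% and 5.11% of all genes). Those higher numbered 8, 5 and 0 in the 3 ranges of cell number (16.3%, 14.1% and 8.89% of all genes). Without cells with a glial or pituitary marker at 8 log2RPM, 1 was higher (4.68% of all genes). Without cells with 3 or more pituitary markers, 4 were lower (4.05% of all genes). Associated genes numbered 1 higher and 2 lower with a pseudocount of 5 RPM. Among cells 67 to 98 they numbered 8 and 19 (14.1% and 17.1% of all genes). With a pseudocount of 0.1 RPM, 19 were lower (9.39% of all genes). Without cells that held 3 or more other-type markers, 7 were lower (5.11% of all genes). Without lower-Pomc cells with *Pomc* under 6, 7 were lower (4.78% of all genes). A larger pseudocount shrinks differences of low genes by construction.

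With the expression limit at 1 RPM, 17 receptor genes were expressed in at least 90% of cells and 3 in under 20%, and with any value above the lowest 29 and 0, with a median of 41 per cell. At 1 RPM, 98.8% of cells held an alpha, beta and gamma GABA-A gene, 85.9% *Gabbr1* with *Gabbr2*, 95.7% *Grin1* with a *Grin2* gene, 80.4% *Glrb* with a *Glra* gene, 91.4% *Gabre* with *Gabrq* and 84.7% a *Grik4* or *Grik5* gene with *Grik1*, *Grik2* or *Grik3*; at 10 RPM the last pair of shares was 62.6% and 50.9%. Thinned to 3.85 M reads (17 shallower cells left out), all 46 shares stayed within their intervals. No paired analysis was possible because all cells belong to 1 group of the labels and cell numbers pair nothing.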
